A study of Mus musculus with 6 samples.

Results

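The zinc-dependent histone deacetylase genes Hdac1 to Hdac10 were examined for acetylation of histone H3 at lysine 27 (H3K27ac) in mouse hematopoietic stem cells. They were taken as a fixed list of symbols, all 10 of which matched the 21887 protein-coding genes of the RefSeq table for GRCm38.p6 (mm10). Each gene was considered with 10 kb on each side, and these spans held 194 of the 194026 deposited peaks. Ppp2ca encodes the alpha form of the catalytic subunit of protein phosphatase 2A. Bone marrow stem cells of 3 mice lacking it gave the KO libraries. Those of 3 mice with wild-type Ppp2ca gave the WT libraries. The mark was mapped by CUT&RUN, in which an antibody brings a micrococcal nuclease to the modified chromatin and the released fragments are sequenced, from 100000 cells per preparation. No source used here gives the deletion method, the deleted part, the strain, age or sex of the mice or the markers used to isolate the cells. Animals are not numbered in the labels; libraries were treated as separate mice, and p-values measure only the spread between these libraries.

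Histone deacetylases remove acetyl groups from lysines of histones and other proteins and so oppose the acetyltransferases that place marks such as H3K27ac. Class I enzymes (Hdac1, Hdac2, Hdac3, Hdac8) are mostly nuclear, and Hdac1, Hdac2 and Hdac3 act as the catalytic subunits of corepressor complexes. Class IIa enzymes (Hdac4, Hdac5, Hdac7, Hdac9) shuttle between nucleus and cytoplasm, bind MEF2 transcription factors and have little deacetylase activity of their own. Class IIb enzymes (Hdac6, Hdac10) are mainly cytoplasmic; Hdac6 deacetylates tubulin and Hdac10 acts on polyamines. H3K27ac at these genes describes their own promoters and candidate enhancers, not the activity of the enzymes.

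The lists held 34016 to 50453 peaks in KO libraries and 21917 to 29945 in WT libraries. Since peak lists carry no read totals, the caller's genome background served as a guide to depth, at 0.465 to 0.827 fragments per 200 bp in KO and 0.498 to 0.584 in WT libraries. KO replicate 2 had the lowest background of all 6 libraries. At Ppp2ca itself gene-end coverage was 1371, 1338 and 1381 bp in KO replicates 1 to 3 and 1076, 729 and 1077 bp in WT replicates 1 to 3, all under low-q peaks (deposited q-value, the caller's adjusted p-value, of 0.05 or lower); a mark at the gene's ends does not check the deletion. A typical WT peak rested on few fragments, with a median summit of 5 in each WT library against 6 to 9 in KO libraries. Of 15 stem and progenitor marker genes, 5, 3 and 3 carried a gene-end peak in KO replicates 1 to 3 and 4, 3 and 5 in WT replicates 1 to 3. Of these, Tal1 and Runx1 had one in all 6 libraries, and Ly6a, Slamf1, Cd34, Gata2, Erg, Hlf and Mecom in none. Coverage was higher in every KO library at 0 of the 15, and low-q peaks marked 3 in each KO and 1 in each WT library. Erythroid markers had a gene-end peak at 3 of 5 genes in each KO and 2 of 5 in each WT library. Low-q peaks marked 2, 3 and 3 of them in KO replicates 1 to 3 and 0 in every WT library, and coverage was higher in every KO library at 3 of the 5; Gata1 and Alas2 had no gene-end peak in any library. Myeloid markers had one at 4, 1 and 3 of 5 genes in KO and 2, 3 and 1 in WT replicates 1 to 3. Low-q peaks marked 2, 1 and 3 of the myeloid genes in KO replicates 1 to 3 and 0 in every WT library. Coverage was higher in every KO library at 0 of these 5. B-cell, T-cell and endothelial or stromal markers had a gene-end peak at 0 to 2, 1 to 2 and 1 of 4 genes in KO libraries. In WT libraries the numbers were 0 to 2, 1 and 1 of 4, and low-q counts of these last sets overlapped between genotypes. The part of other cell types in the results was not tested.

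The promoter sequences show what lay under or beside the peaks. RefSeq (GRCm38.p6) listed promoters, from 250 bases before to 50 after a transcription start, for 7 of the 10 genes and 11 starts in all; Hdac1, Hdac3 and Hdac10 had no entry. The first 3 below had peaks in all 3 KO libraries, with 3, 1 and 2 WT libraries in that order. The fourth had peaks in 2 KO libraries and no WT library, and the fifth in KO replicate 1 alone. The promoter of the Hdac7 start at 97844502, which is not printed and held no match to the motifs searched, also had peaks in 2 KO libraries and no WT library. Each is printed 5′ to 3′. Capitals mark matches, on either strand, to 8 motifs: the GC box GGGCGG, the CCAAT box, the TATA element TATAAA, the ETS motif CCGGAAG, the E box CACGTG, the CRE core TGACGT, the AP-1 motif TGACTCA and the GATA motif AGATAA. At Hdac8 the CCAAT matches on the 2 strands overlap.
Hdac4 (chr1:92180292-92180591, minus strand): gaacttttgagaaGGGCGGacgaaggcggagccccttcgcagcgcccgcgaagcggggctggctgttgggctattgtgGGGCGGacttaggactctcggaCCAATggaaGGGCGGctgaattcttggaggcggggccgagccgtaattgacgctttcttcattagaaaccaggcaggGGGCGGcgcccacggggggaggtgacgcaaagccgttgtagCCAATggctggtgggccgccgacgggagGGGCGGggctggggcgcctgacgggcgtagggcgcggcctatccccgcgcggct
Hdac2 (chr10:36974294-36974593, plus strand): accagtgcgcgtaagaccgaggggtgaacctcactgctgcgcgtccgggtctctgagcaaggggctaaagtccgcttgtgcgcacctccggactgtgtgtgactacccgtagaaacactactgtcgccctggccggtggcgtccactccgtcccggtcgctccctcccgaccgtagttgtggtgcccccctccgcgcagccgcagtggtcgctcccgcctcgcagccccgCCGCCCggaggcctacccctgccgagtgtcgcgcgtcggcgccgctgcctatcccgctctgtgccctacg
Hdac5 (chr11:102230123-102230422, minus strand): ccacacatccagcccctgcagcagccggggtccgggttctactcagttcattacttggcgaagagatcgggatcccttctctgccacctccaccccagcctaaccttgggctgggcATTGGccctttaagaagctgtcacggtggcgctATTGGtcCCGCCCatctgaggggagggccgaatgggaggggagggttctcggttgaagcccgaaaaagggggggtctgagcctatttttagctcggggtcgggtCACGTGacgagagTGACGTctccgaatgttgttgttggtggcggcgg
Hdac8 (chrX:102505109-102505408, minus strand): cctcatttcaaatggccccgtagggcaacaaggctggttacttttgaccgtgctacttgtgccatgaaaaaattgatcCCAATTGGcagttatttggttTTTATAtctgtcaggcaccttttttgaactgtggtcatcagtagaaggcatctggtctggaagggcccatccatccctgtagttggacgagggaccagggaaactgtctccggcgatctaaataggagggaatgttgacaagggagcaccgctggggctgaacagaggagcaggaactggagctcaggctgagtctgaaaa
Hdac6 (chrX:7947840-7948139, minus strand): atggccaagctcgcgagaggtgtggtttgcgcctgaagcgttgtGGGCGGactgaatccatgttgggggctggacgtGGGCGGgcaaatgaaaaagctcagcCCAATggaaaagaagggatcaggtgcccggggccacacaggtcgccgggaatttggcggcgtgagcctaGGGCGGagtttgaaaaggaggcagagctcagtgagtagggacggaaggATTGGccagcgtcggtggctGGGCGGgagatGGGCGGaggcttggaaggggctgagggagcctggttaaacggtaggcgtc

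The Hdac4 and Hdac2 promoters were CpG rich, with 32 and 36 CpG dinucleotides in 300 bases, above the median of 13 over 21263 promoters of protein-coding genes. Hdac5 had 18, Hdac6 20 and Hdac8 only 6. Over all promoters the median was 22 CpG where a peak occurred in all 6 libraries, 21 where it occurred in all 3 KO and no WT library, and 5 where no library had a peak. The Hdac8 promoter and that of the Hdac7 start at 97844502, with 6 CpG each, thus carried KO peaks at a CpG count close to that of unmarked promoters. Conversely, the listed Hdac7 starts at 97831495 and 97831767 had 31 and 35 CpG and no peak in any library. GC boxes occurred 5 times each at Hdac4 and Hdac6 and once each at Hdac2 and Hdac5, against 46.2% of all promoters with at least 1. CCAAT was found at Hdac4, Hdac5, Hdac6 and Hdac8, against 38.2% of all promoters, and TATAAA at Hdac8, against 12.6%. The E box and CRE core were found at Hdac5 only among these 5 promoters, against 7.84% and 8.49% of all promoters. The ETS, AP-1 and GATA motifs, in 11.6%, 4.66% and 9.65% of all promoters, had no match in these 5. Hdac4 and Hdac6 therefore held the same kinds and numbers of motif matches, while their peaks differed widely. Listed promoters without a peak in any library also held matches. The Hdac7 start at 97814863 had the AP-1 motif and that at 97831495 a GC box and the GATA motif. The Hdac9 start at 34917095 had TATAAA. Matches are descriptions of the letters, not binding sites.

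The main comparison asked at how many deacetylase genes the mark was called in each genotype. A peak within 1000 bp of either gene end was present at 8, 7 and 7 of the 10 genes in KO replicates 1 to 3, against 1, 5 and 2 in WT replicates 1 to 3. The mean was 7.33 ± 0.577 genes in KO and 2.67 ± 2.08 in WT (SD, n = 3 each; two-sided exact permutation p = 0.1, the smallest this design allows). Every KO library exceeded every WT library, and among WT libraries replicate 2 stood highest. As a share, 73.3% of the deacetylase genes were marked in an average KO library, against 42.0% of all protein-coding genes. In WT libraries the shares were 26.7% of the deacetylase genes and 27.5% of all genes. Low-q peaks marked 6, 6 and 7 deacetylase genes in KO replicates 1 to 3 and none in any WT library (exact permutation p = 0.1). At that threshold all genes were marked at 36.5% in KO and 10.7% in WT libraries.

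Counted at gene ends, and with classes too small to compare by a test, all 4 class I genes had a gene-end peak in each KO library, against 0, 3 and 1 of them in WT replicates 1 to 3. Of the class IIa genes, Hdac5 and Hdac7 were marked in each KO library and Hdac5 alone in each WT library. Of the class IIb genes, Hdac10 was marked in all 3 KO libraries and WT replicate 2, and Hdac6 in KO replicate 1 alone. These counts depend on the gene-end rule, under which the peaks at the listed start of Hdac4, present in all 6 libraries, do not count.

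Gene-end coverage, the base pairs under peaks within these windows, was higher in every KO than every WT library at 7 of the 10 genes: Hdac1, Hdac2, Hdac3, Hdac5, Hdac7, Hdac8 and Hdac10. The same order held at 25.6% of all protein-coding genes, and at 50.6% of the 11087 genes with a gene-end peak in any library. It was lower in every KO library at none of the 10 genes, against 0.0183% of all genes. The median gene of the list had 462.5 bp more in KO than in WT, against 0 bp over all genes and 437 bp over the genes marked in any library. With a window of 500 bp the order held at 4 genes, Hdac1, Hdac2, Hdac5 and Hdac10. With peaks of a −log10 q-value of at least 5 it held at none, and the number of marked genes was then 3, 0 and 5 in KO replicates 1 to 3 and 0 in every WT library (exact permutation p = 0.4). No share of all genes is given under these stricter rules, so these counts stand without a background.

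**Figure D1:**
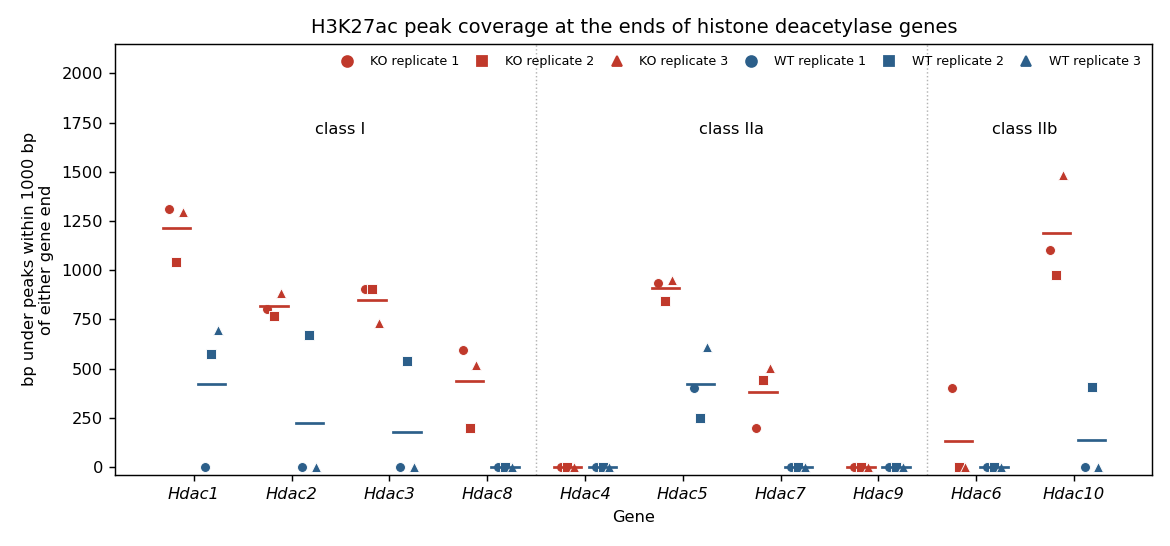
Base pairs under H3K27ac peaks within 1000 bp of either end of each histone deacetylase gene, by class; points are libraries and horizontal lines group means (n = 3 each). KO points lie above all WT points at 7 genes, while Hdac4 and Hdac9 are at 0 in every library and Hdac6 is above 0 only in KO replicate 1.

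Among class I genes, Hdac1 (chromosome 4, 129516104 to 129542646) and Hdac2 (chromosome 10, 36974297 to 37001889) encode the paired catalytic subunits of the NuRD, SIN3 and CoREST complexes. Hdac1 had 1311, 1040 and 1295 bp of gene-end coverage in KO replicates 1 to 3, against 0, 574 and 697 bp in WT replicates 1 to 3. All of it but 200 bp in KO replicate 3 lay at the high-coordinate end, where the strongest peaks were 848, 633 and 769 bp wide in KO replicates 1 to 3. The authors' fold at the summit relative to background was 4.78, 4.62 and 7.29. Within the KO lists they ranked in the top 9.93%, 16.1% and 2.41%, counting from the strongest peak. The WT peaks over the same end had folds of 2.84 in replicate 2 and 3.37 in replicate 3, with 4 and 5 fragments at their summits, against 16, 10 and 27 in KO replicates 1 to 3. WT replicate 1 had no peak anywhere in the span of Hdac1. A second interval, from 129541656 to 129542144 inside the same end, had peaks in all 3 KO libraries and no WT library. They were weak, with folds of 2.50, 2.89 and 3.11 and ranks of 87.3%, 80.4% and 58.4% in KO replicates 1 to 3. Only that of KO replicate 3 was low-q. The low-coordinate window, which Hdac1 shares with Marcksl1, held a single 200 bp peak, in KO replicate 3.

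At Hdac2 gene-end coverage was 804, 767 and 882 bp in KO replicates 1 to 3, against 0, 670 and 0 bp in WT replicates 1 to 3. The KO peaks covered the listed transcription start, reaching 328 to 355 bp upstream of it, with folds of 5.08, 6.04 and 7.61. The single WT peak at this end, in replicate 2, reached 111 bp upstream with a fold of 2.98 and 4 fragments at the summit, against 12, 10 and 20 fragments in KO replicates 1 to 3. KO and WT coverage did not overlap at this end. Coverage of the whole span did overlap, at 767 to 1164 bp in KO and 0 to 1070 bp in WT. WT replicate 2 had 2 more peaks, of 200 bp each, inside and beyond the gene.

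Hdac3 (chromosome 18, 37936971 to 37955015) encodes the catalytic subunit of the NCoR and SMRT complexes. Its coverage was 903, 904 and 732 bp in KO replicates 1 to 3, against 0, 540 and 0 bp in WT replicates 1 to 3. All of it lay at the high-coordinate end, in a window shared with Rell2, and the best KO peaks had folds of 6.19, 5.00 and 4.96. In WT replicate 2 the 2 peaks there had folds of 3.05 and 3.70 and were 292 and 248 bp wide. A flanking region from 37934450 to 37935634, at the end of the neighbouring gene Diaph1, was likewise marked in 3 KO libraries and in WT replicate 2. Just beyond that region WT replicate 2 had its only low-q peak in the Hdac3 span, 216 bp wide with a fold of 3.67.

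Hdac8 (chromosome X, 102284638 to 102505381), a class I enzyme whose known substrates include the cohesin subunit Smc3, had 593, 200 and 516 bp in KO replicates 1 to 3 and 0 bp in every WT library. The folds were 4.95, 4.09 and 7.12, with 8, 5 and 12 fragments at the summits and all 3 were low-q peaks. The peaks of KO replicates 1 and 3 covered the listed start, while that of replicate 2 lay 295 to 494 bp downstream of it and overlapped neither. It was nearly adjacent to them, ending at 102504863, where the peak of KO replicate 1 began at 102504872. Hdac8 and Hdac7 were the 2 genes of the list with a gene-end peak in all 3 KO and no WT library, against 4.1% of all genes and 8.1% of the genes marked in any library. None was marked in all 3 WT and no KO library, against 0.00914% of all genes. Among low-q peaks the KO-only rule held at 6 of the 10 genes, against 12.4% of all genes.

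**Figure D2:**
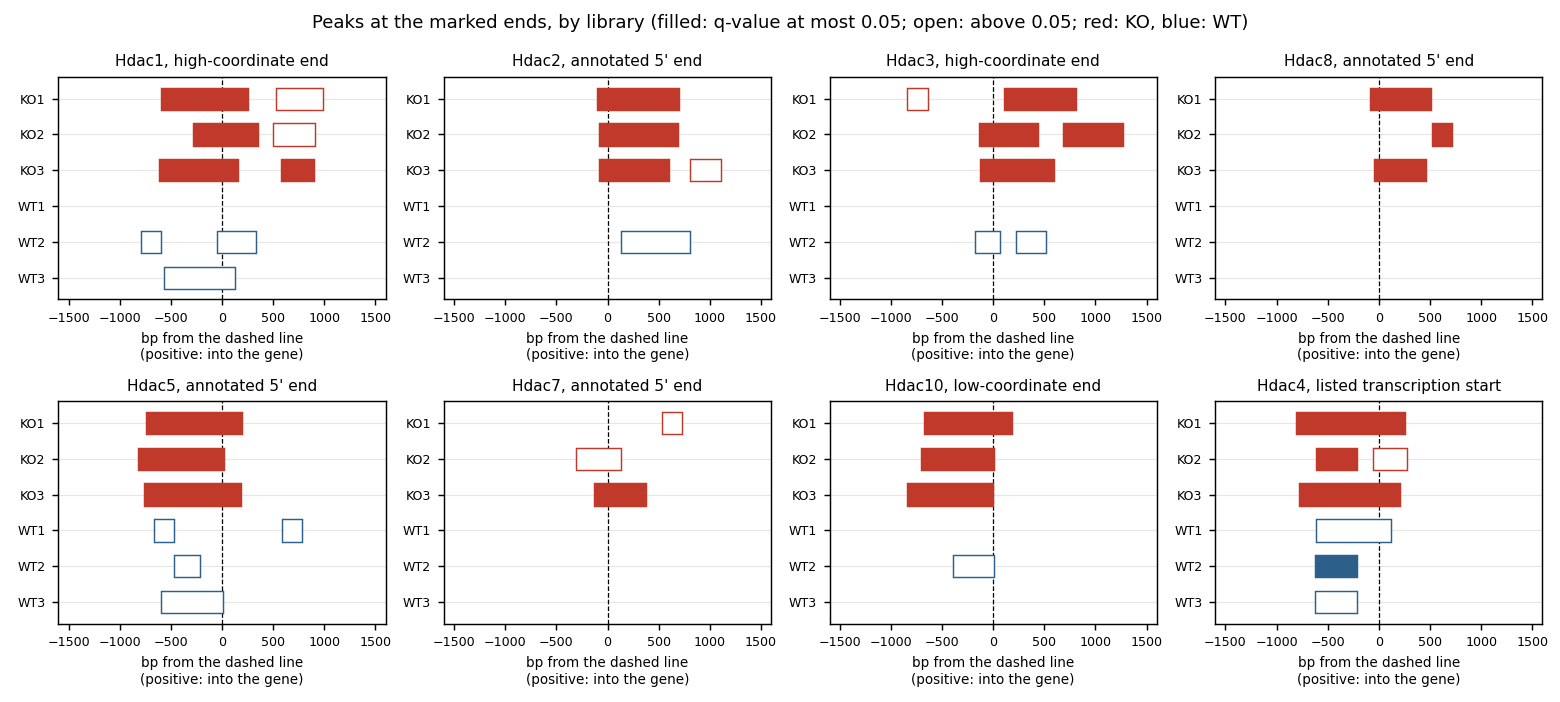
Peaks of each library (rows, KO above WT) within 1600 bp of the marked end of 8 genes, in bp from the gene end or, for Hdac4, from the listed start; filled bars are low-q peaks and open bars the others. The strongest KO bars lie over the same place at 6 of the 8 ends, the exceptions being Hdac8 and Hdac7, and Hdac4 alone has a filled WT bar.

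Hdac4 (chromosome 1, 91928779 to 92195702), a class IIa enzyme known for restraining MEF2 targets, had no peak at either end of its annotated span. The strongest peak of all 10 genes, by fold and by rank, lay inside the span of 267 kb, at the listed start at 92180341, and so counts as a peak in the gene body. This region, from 92180064 to 92181153, had a peak in all 6 libraries. The fold of the strongest peak there was 9.02, 8.39 and 8.70 in KO replicates 1 to 3, against 3.89, 6.09 and 3.41 in WT replicates 1 to 3. These KO peaks ranked in the top 0.398%, 0.470% and 0.483% of their lists, and the WT peaks in the top 27.6%, 1.25% and 44.1%. Summits held 34, 24 and 42 fragments in KO and 6, 13 and 5 in WT replicates 1 to 3. Only the WT replicate 2 peak was a low-q peak among WT libraries. The strongest peaks were 1073, 407 and 987 bp wide in KO and 737, 410 and 407 bp in WT replicates 1 to 3, so these widths overlapped. KO replicate 2 had a further peak in the region, 332 bp wide and over the listed start, with a fold of 3.04 and not low-q. Around the listed start, coverage by all peaks was higher in every KO than every WT library, but by a few bases only in KO replicate 2. Its peaks of 407 and 332 bp, the second not low-q, together barely exceeded the 737 bp of WT replicate 1. In KO replicate 2 and WT replicates 2 and 3 the strongest peak spanned nearly the same bases, from 211 to 213 bp to 618 to 620 bp upstream of the start. Folds come from separate lists and were not tested between genotypes.

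Inside Hdac4 as a whole, peaks numbered 15, 12 and 9 in KO replicates 1 to 3, against 3, 5 and 5 in WT replicates 1 to 3, counting the start region. Per 100 kb of gene this was 5.62, 4.50 and 3.37 in KO against 1.12, 1.87 and 1.87 in WT. Genes of at least 100 kb, 2429 in all, carried 1.89, 1.12 and 1.19 peaks per 100 kb in KO and 0.684, 0.971 and 0.666 in WT replicates 1 to 3. In every library Hdac4 thus had more peaks per length than these genes as a whole. One region, from 92034124 to 92034698, had peaks in all 3 KO and no WT library, with folds of 2.94, 4.30 and 5.98. Another, from 92048390 to 92049475, had folds of 3.73, 5.34 and 3.77 in KO and 1 WT peak of 200 bp, in replicate 3.

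Hdac5 (chromosome 11, 102195747 to 102230172), also class IIa, was the only gene of the list with a gene-end peak in all 6 libraries, against 17% of all genes. Its coverage was 937, 842 and 948 bp in KO replicates 1 to 3, against 400, 250 and 611 bp in WT replicates 1 to 3. The KO peaks ran from 743 to 823 bp upstream of the start to just inside the gene, with folds of 6.13, 5.00 and 5.76. The WT peaks had folds of 2.98 to 3.16, 4 fragments at each summit, and none was low-q. In WT replicate 1 the coverage was split into 2 peaks of 200 bp on opposite sides of the start. Inside the gene there were 3, 2 and 1 further peaks in KO and none in WT libraries. Beyond the low-coordinate end, a region from 102189478 to 102191415 over G6pc3 had peaks in all 6 libraries.

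At Hdac7 (chromosome 15, 97792661 to 97844502), a class IIa gene known for its part in lymphoid development, gene-end coverage was 200, 440 and 503 bp in KO and 0 bp in every WT library. These peaks were weak. Their folds were 2.73, 2.92 and 3.21, their ranks fell between 54.5% and 75.7% of the KO lists, and only that of KO replicate 3 was low-q. The peak of KO replicate 1 did not overlap the other 2. The better-shared marks lay inside the gene. A region from 97820901 to 97821997 had peaks in all 6 libraries, and one from 97825088 to 97825555 in all 3 KO and no WT library, with folds of 2.06, 2.94 and 2.51. A region in the neighbouring gene Slc48a1, from 97785692 to 97788013, had peaks in all 3 KO libraries and in WT replicate 2.

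Hdac9 (chromosome 12, 34047580 to 34917095), the longest gene of the list at 870 kb, had no peak within 1000 bp of either end or of either listed start in any library. Inside it lay 18, 6 and 9 peaks in KO replicates 1 to 3, against 1, 3 and 3 in WT replicates 1 to 3. The density, 2.07, 0.690 and 1.04 peaks per 100 kb in KO and 0.115, 0.345 and 0.345 in WT, was close to that of genes of at least 100 kb in KO replicates 1 and 3 and below it in the other 4 libraries. When the gene was divided into 4 equal stretches from its 5′ end, the KO peaks numbered 17, 10, 3 and 3. All 11 low-q KO peaks lay in the 2 stretches nearest that end. The WT peaks numbered 4, 0, 1 and 2, none of them low-q. A single region, from 34806114 to 34807076 and 110 kb downstream of the listed start, was shared by all 3 KO libraries, with folds of 3.33, 3.23 and 4.05. WT replicate 2 had a peak in it, with a fold of 3.61.

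**Figure D3:**
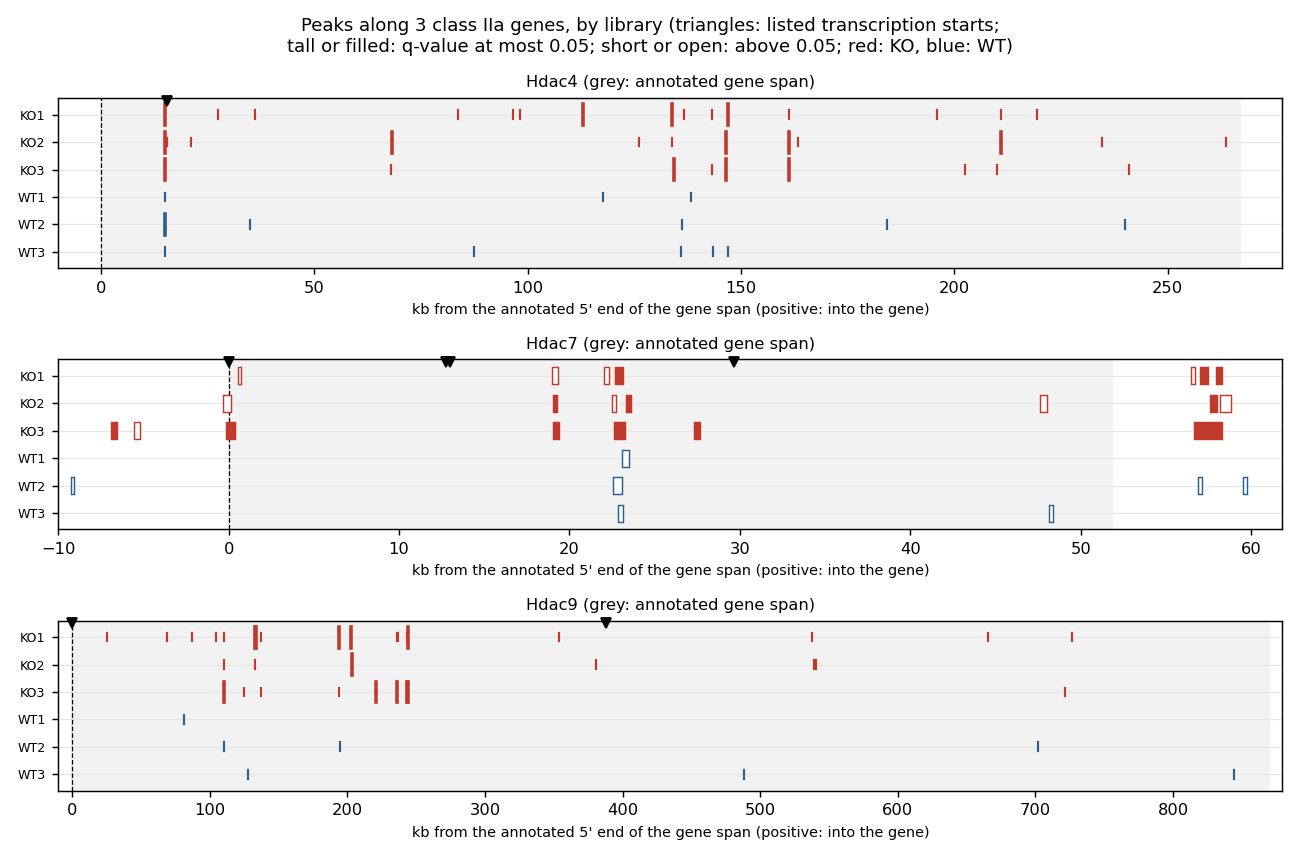
Peaks of each library (rows, KO above WT) along Hdac4, Hdac7 and Hdac9, in kb from the annotated 5′ end; tall or filled marks are low-q peaks, and triangles are listed transcription starts. At Hdac4 all 6 libraries have a peak at the listed start, and at Hdac9 the low-q KO peaks lie in the part of the gene nearest the 5′ end.

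Hdac6 (chromosome X, 7930116 to 7948047) was the least marked gene of the list, with 2 peaks in all. Both were 200 bp wide, in KO replicate 1, with folds of 2.30 and 2.88 and 3 and 4 fragments at the summits, and neither was low-q. The other 5 libraries had no peak in its span. On the X chromosome, where Hdac6 and Hdac8 lie, 25.7% ± 2.28 of genes had a gene-end peak in KO and 14.7% ± 2.02 in WT libraries (SD, n = 3 each), less than over all chromosomes, at 42.0% in KO and 27.5% in WT. The part of the sex of the mice was not tested.

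Hdac10 (chromosome 15, 89123303 to 89128700), the shortest gene of the list at 5398 bp, had 1105, 974 and 1485 bp of gene-end coverage in KO replicates 1 to 3, against 0, 405 and 0 bp in WT replicates 1 to 3. At the low-coordinate end, shared with Tubgcp6, KO peaks were 857, 714 and 840 bp wide with folds of 4.96, 4.04 and 5.37. WT replicate 2 had a peak of 405 bp and a fold of 3.79 there. Those peaks lie in the windows of both genes and cannot be assigned to Hdac10 alone. The opposite end had a peak in all 3 KO and no WT library, 248 to 645 bp wide with folds of 3.54 to 3.74, outside the window of its neighbour Mapk12. All 6 KO peaks at the ends of Hdac10 were low-q peaks.

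Over whole spans, the 10 genes held 60, 42 and 42 peaks in KO replicates 1 to 3, against 9, 25 and 16 in WT replicates 1 to 3. The mean was 48 ± 10.4 in KO and 16.7 ± 8.02 in WT (SD, n = 3 each; exact permutation p = 0.1), a ratio of 2.88. Covered length was 23.1, 15.2 and 20.2 kb in KO and 2.85, 6.92 and 4.80 kb in WT replicates 1 to 3, a ratio of 4.01 (exact permutation p = 0.1). The whole lists differed in the same direction. They held 50453, 34016 and 35629 peaks in KO and 22066, 29945 and 21917 in WT replicates 1 to 3. These covered 22.7, 14.5 and 19.6 Mb in KO and 7.28, 9.60 and 7.25 Mb in WT, so the span ratios are not particular to these genes in direction. Span coverage was higher in every KO than every WT library at 7 of the 10 genes, against 41.8% of all genes; the exceptions were Hdac2, Hdac6 and Hdac8. It was lower in every KO library at none of the 10, against 0.37% of all genes. Peaks inside genes but away from their ends numbered 42, 24 and 22 in KO and 6, 10 and 12 in WT replicates 1 to 3 (exact permutation p = 0.1). When each list was cut to the same number of peaks these became 11, 15 and 10 in KO and 6, 8 and 12 in WT replicates 1 to 3, and the groups overlapped (exact permutation p = 0.3). At equal list length the number of genes with a gene-end peak was 6, 6 and 7 in KO replicates 1 to 3. It was 1, 3 and 2 in WT replicates 1 to 3, still without overlap. The list of partner genes described below also separated at equal list length. Its counts were 44, 47 and 46 genes in KO and 32, 36 and 31 in WT replicates 1 to 3. No share of all genes is given at equal list length, so the separation is not shown to be particular to the deacetylase genes.

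In the spans as a whole, 52.8% of KO peaks and 6% of WT peaks were low-q, against 43.9%, 47.4% and 66.6% of all peaks in KO replicates 1 to 3 and 15.7% to 16.7% in WT libraries. By place, at gene ends 24 of 33 KO peaks and 0 of 11 WT peaks were low-q, and the median width was 588 bp in KO and 292 bp in WT. Inside genes the numbers were 33 of 88 KO and 1 of 28 WT peaks, with a median width of 278 bp in KO and 200 bp in WT. In the flanks they were 19 of 23 KO and 2 of 11 WT peaks. Peaks of 200 bp, the shortest width in the lists, made up 27.1% of KO and 54% of WT peaks in the spans. Merging overlapping peaks gave 113 regions, of which 83 came from 1 library only, 57 of them in KO and 26 in WT libraries. All 3 KO libraries shared 17 regions, 5 of which had no WT peak, and 4 regions were found in all 6 libraries. No region was found in all 3 WT and no KO library. Region counts over the whole series are not given here, and every KO list was longer than every WT list. The region counts therefore do not set these genes apart.

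Partners of the deacetylases were followed in a list of 64 genes: Hdac11, the sirtuins, corepressor subunits and regulators of class IIa enzymes. In each KO library 49 of them had a gene-end peak, against 32, 38 and 31 in WT replicates 1 to 3 (mean 49 in KO and 33.7 ± 3.79 in WT, SD, n = 3 each; exact permutation p = 0.1). These were 76.6% of the list in KO and 52.6% in WT libraries, against 42.0% of all genes in KO and 27.5% in WT libraries. Gene-end coverage was higher in every KO than every WT library at 29 of the 64 genes, or 45.3%, and lower at none. The share was 25.6% of all genes and 50.6% of the genes marked in any library; 8 of the 64 had no gene-end peak in any library. By list, the genes with higher coverage in every KO library were 5 of 7 sirtuins, 5 of 11 NuRD, 5 of 12 SIN3 and 3 of 6 CoREST genes. They were 3 of 5 NCoR and SMRT, 1 of 3 MiDAC and 7 of 19 class IIa regulator genes. Hdac11, the class IV enzyme, had a gene-end peak in KO replicate 1 only.

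Among the NAD-dependent sirtuins, Sirt1 (window shared with Herc4) and Sirt3 (with Ric8a and Psmd13) were marked in all 3 KO and no WT library, at 659 to 747 bp and 209 to 331 bp of KO coverage. Of the corepressor subunits, the SIN3 gene Brms1l (859 to 1152 bp), the CoREST gene Rcor3 (129 to 883 bp) and the MiDAC scaffold gene Mideas (877 to 1176 bp; shared with Pnma1 and Gm46319) behaved likewise. So did Sik2, a kinase that phosphorylates class IIa enzymes, at 478 to 724 bp. These 6 genes were 9.38% of the 64, against 4.1% of all genes and 8.1% of the genes marked in any library. Their folds ranged in KO from 2.68 at Sirt1 to 6.50 at Brms1l. The weakest of these Sirt1 peaks, in KO replicate 1, ranked at 89.2% of its list and was not low-q. Other partners, 26 of the 64 genes or 40.6%, were marked in all 6 libraries, against 17% of all genes. Only 4 of them, picked by the naming rule, are described here. The NuRD genes Mbd3 had 1481 to 1627 bp in KO and 438 to 946 bp in WT, and Mta3 371 to 2228 bp in KO and 173 to 776 bp in WT. The corepressor Ncor1 (shared with Pigl), which recruits Hdac3, had 1207 to 1505 bp in KO and 694 to 849 bp in WT, with folds of 3.80 to 4.84 in KO and 4.69 to 5.95 in WT. Gps2, of the same complex (shared with Neurl4 and Eif5a), had 900 to 1129 bp in KO and 436 to 741 bp in WT. Of these 4 genes, Ncor1 and Mta3 had low-q peaks in all 6 libraries, which no deacetylase gene had at its ends.

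**Figure D4:**
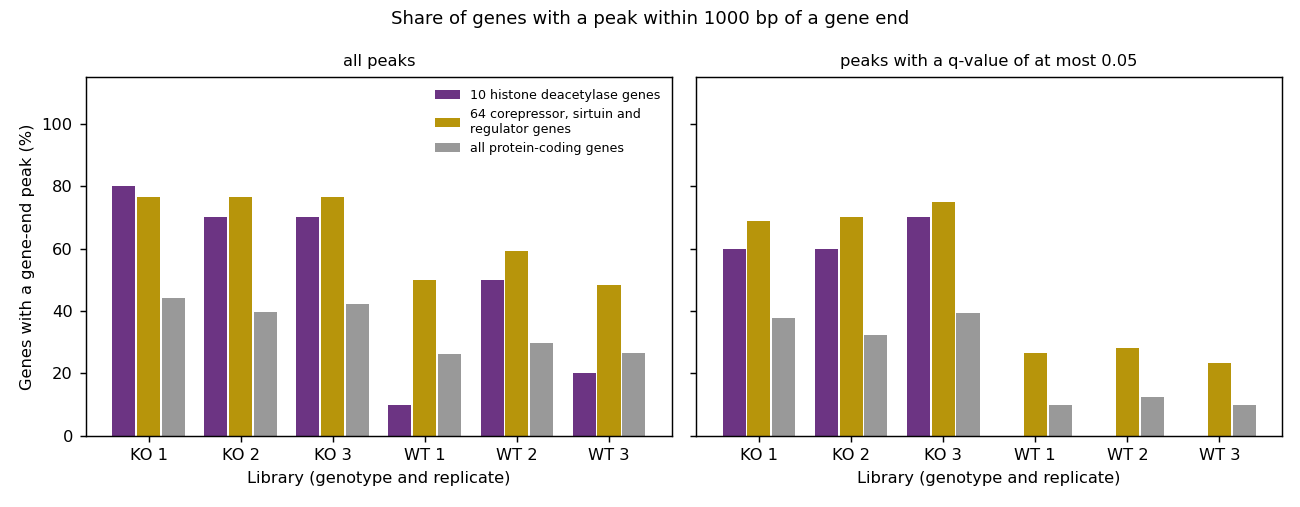
Percentage of genes with a peak within 1000 bp of a gene end in each library, for the 10 deacetylase genes, the 64 partner genes and all 21887 protein-coding genes; the left panel uses all peaks and the right panel low-q peaks. Deacetylase genes lie above all genes in the 3 KO libraries and range from 10% to 50% in WT libraries, where they fall to 0% in the right panel.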

How the data were processed

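The 6 files are narrowPeak lists, 1 per library. The submitters' processing notes name GRCm38/mm10 and the tools MACS2, BWA, Trimmomatic, HOMER, ChIPseeker and deepTools; no source used here gives their versions or parameters, or says whether a control library was used. In each list the deposited ratio is the summit's fold relative to the background that the authors' caller estimated. The deposited −log10 p-value and the −log10 q-value made from it describe that summit too, and the deposited score was not used.

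Peaks were placed at a gene end (at least 1 bp within 1000 bp of either end), in the body or in the 10 kb flank with Python 3.11.15, pandas 2.3.3 and numpy 2.4.6. Rank is by p-value within a list. Summit fragments and background were solved from fold and p-value (scipy 1.17.1; tolerance 0.002). Numbers per library were compared by two-sided exact permutation over 20 assignments. Depth per library is unknown beyond the solved background, and heights were not tested between lists. Members and lists were chosen with earlier results of these data known. Named partners were, per list, up to 3 genes marked in all 3 KO and no WT library, otherwise up to 2 marked in all 6. Alternatives were stricter q-values, equal list lengths, a midpoint rule, other windows and flanks, listed starts only, blocking on replicate number and leaving out single libraries.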

Additional observations from a re-analysis of the deposited data

How the results depend on the processing

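The 5 comparisons tested over libraries kept a higher KO mean under every alternative run, and none could pass 0.05, since the smallest exact permutation p was 0.1. The difference in genes with a gene-end peak, 4.67 as analysed, ranged from 2.67 with a −log10 q-value of at least 5 to 6.33 with a q-value of at most 0.05, and from 3.83 to 5.83 when each library was left out. The difference in peaks per span set ranged from 3.67 to 39, and in covered length from 2.95 to 20.4 kb. The number of genes with more gene-end coverage in every KO library was 7 as analysed and 4 with a window of 500 bp. It was 0 with a −log10 q-value of at least 5, where KO replicate 2 had no gene-end peak left. Leaving out a library only relaxes this rule, so the 7 genes found each time could not have been fewer. With listed starts only, which 7 of the 10 genes have, 6, 5 and 5 genes were marked in KO replicates 1 to 3 and 2, 3 and 2 in WT replicates 1 to 3, a difference of 3. The coverage order then held at 5 genes, Hdac2, Hdac4, Hdac5, Hdac7 and Hdac8. Hdac4 entered by a few bases only, in KO replicate 2 against WT replicate 1, while Hdac1, Hdac3 and Hdac10 have no listed start. No share of all genes is given for the coverage order under these changed rules. Libraries with the same replicate number did not deviate together (correlations of 0.0169, 0.00668 and -0.00212 over 11087 genes), so the numbers were not taken as pairs. A replicate block left the difference in genes at 4.67, with an exact sign-flip p of 0.25, the smallest it can give. KO replicate 2 had the lowest background, at 0.465 fragments per 200 bp, against 0.498 to 0.584 in WT libraries. It had gene-end peaks at 7 genes, low-q at 6. With a −log10 q-value of at least 5 it had 0, against 3 and 5 in KO replicates 1 and 3. Sequencing depth is not in the lists, and its part in these counts and in the uncalled WT ends was not tested.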
